A study of Homo sapiens with 12 samples.

Results

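The HOX genes encode homeodomain transcription factors that give cells along the body axis, the limbs and the urogenital tract their positional identity. In human they lie in 4 clusters, and the order of the genes on the chromosome follows the order in which they are used, from anterior (low paralog numbers) to posterior (high paralog numbers). Polycomb proteins keep silent parts of a cluster closed, MLL proteins keep active parts open, and PBX and MEIS proteins bind DNA together with HOX proteins. The HOX genes described here are the protein-coding genes whose symbol is HOXA, HOXB, HOXC or HOXD followed by a number. They were 39 of the 61860 genes in the file: 11 in HOXA (chromosome 7), 10 in HOXB (chromosome 17, 48528526 to 48728750), 9 in HOXC (chromosome 12, 53938831 to 54056030) and 9 in HOXD (chromosome 2, 176092721 to 176190907). All positions are on GRCh38.

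RNA was sequenced from Flp-In T-REx 293 cells, a line derived from HEK293 human embryonic kidney cells, after 6 days of doxycycline at 1 µg/ml in every library. Doxycycline induced chained miRNAs against the endogenous mRNA of PGC-1α, a transcriptional coactivator of mitochondrial genes, together with a miRNA-resistant PGC-1α that was either full length (WT-res) or lacked its RS domain (ΔRS-res). Whole-cell RNA (1 well) and cytoplasmic RNA (6 pooled wells) were collected from 3 consecutive passages of each line, which gave 12 libraries in groups of 3. Each line grew from a single selected colony, so the comparison of the lines is a comparison of 2 clones, and p-values measure the spread between passages of those clones. No line with unaltered PGC-1α and no uninduced sample was analysed here.

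Expected counts, the counts RSEM estimates per transcript, totalled 90333190 to 144628005 per library and were summed per gene. Levels of a gene across libraries are given as CPM, counts scaled to the size of the library, and levels of different genes are compared as TPM, which also divides by transcript length. The HEK293 label was checked against marker genes: 8 of 9 kidney lineage genes had a mean of at least 1 TPM (PAX8 was the exception at 0.021), as had the epithelial genes KRT8 (113 TPM), KRT18 and EPCAM but not CDH1 (0.71 TPM), the neurofilament genes NEFL (106 TPM) and INA but not NEFM (0.237 TPM) or NEFH (0.391 TPM), and of 2 fibroblast genes COL1A1 (1.92 TPM), whereas the markers of blood, endothelium and liver stayed at or below 0.089. One library went against its label. DDX19B was at 12.1 to 15.2 CPM in the other 5 WT-res libraries and at 0.219 to 0.35 in the 6 ΔRS-res libraries, and it was at 0.195 in replicate 3 of the whole-cell libraries labelled WT-res. SDHA gave the same picture, with 68.0 to 77.2 CPM, 326 to 382 CPM and 328 CPM in that library. PPARGC1A, which encodes PGC-1α, was less clear, at 487 CPM in that library. It was at 552 to 682.5 CPM in the other WT-res libraries and 295.7 to 486.1 in ΔRS-res, where whole-cell replicate 3 was highest. The comparisons that use the library against its label are therefore given with and without it, and mean levels over all libraries include it.

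HEK293 cells held RNA from all 4 clusters. At a mean of at least 1 CPM over the 12 libraries, 36 of the 39 HOX genes (92.3%) were expressed, against 62.9% of the 19999 protein-coding genes in the file. HOXD1 was just above that limit (1.06 CPM), and HOXD12 lay below it at 0.355 CPM. HOXB1 and HOXC12 were at or near 0, with 0 to 5 and 0 to 3 counts in a library, where 3 counts correspond to 0.0217 to 0.0336 CPM. HOXB1 specifies a hindbrain segment, and HOXC12 lies in its cluster between the expressed genes HOXC11 and HOXC13. HOXD12 lay in the same way between the expressed genes HOXD11 and HOXD13.

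Per length, posterior genes led. HOXA9 (chromosome 7, 27162438 to 27175180), known for its part in blood cell progenitors and leukaemia, had the highest mean at 93.7 TPM (67.5 to 112 over the 12 libraries). HOXA10 followed at 62.3 TPM (43.7 to 75.1), HOXB9 at 61.5 (46.2 to 80.4), HOXD10 at 45.2 (30.9 to 66.2), HOXC4 at 41.7 (35.1 to 49.8) and HOXD13 at 40.9 (23.8 to 60.1). HOXA9 exceeded HOXA10 in 12 of 12 libraries, although the ranges overlapped. HOXA10 exceeded HOXB9 in 7 of 12, and HOXD10 exceeded HOXC4, and HOXC4 exceeded HOXD13, in 7 of 12 as well, so these neighbours in the order were not separated. Among the 36 expressed genes every neighbouring pair in the order overlapped in range. The median of the expressed HOX genes was 12.6 TPM, below the 16.6 TPM median of protein-coding genes at 1 TPM or more.

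Summed over a cluster, the HOXA genes held 276 TPM (216 to 307), HOXB 170 (138 to 189), HOXD 137 (104 to 183) and HOXC 125 (94.3 to 139). By paralog group, the genes with number 9 together held 179 TPM (132 to 203), those with number 10 held 122 (94.4 to 143) and those with number 13 held 83.8 (60.5 to 101). The genes of group 12 summed to 0.207 TPM (0.084 to 0.288). The strongest anterior gene was HOXC4, whose annotation overlaps HOXC5 and HOXC6 on the same strand. HOXA9 and HOXA10, which had the 2 highest means, overlap each other in the same way, as do HOXD10 and HOXD11. Of the 39 genes, 24 overlap another annotated gene on their own strand and 25 one on the opposite strand. The counting of strand is not given in the sources used here, so reads of such partners cannot be told apart with certainty.

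The comparison of ΔRS-res with WT-res asks what differs between cells that rely on PGC-1α with or without the RS domain. HOXD was the cluster whose genes had the lower levels in ΔRS-res: 9 of 9 were lower in the cytoplasm, and HOXD13 and HOXD10 passed the test. HOXD13 (chromosome 2, 176092721 to 176095944), needed for digits and the urogenital tract, had 97.8, 104 and 98.1 CPM in the cytoplasm of WT-res replicates 1 to 3 and 60.3, 61.9 and 63.0 CPM in ΔRS-res. HOXD10 (176108790 to 176119937), which acts in the lumbar spinal cord and hindlimb, had 47.8, 50.1 and 43.6 CPM against 31.6, 31.8 and 30.9. The groups did not overlap for either gene, and the 3 ΔRS-res libraries lay within 3 CPM of each other. In the quasi-likelihood test of edgeR, adjusted by Benjamini and Hochberg's method over 25949 genes, HOXD13 was lower with a log2 fold change of -0.69 (SE 0.07, adjusted p = 0.00302, 0.621-fold) and HOXD10 with -0.58 (SE 0.08, adjusted p = 0.0119, 0.67-fold). They were the 2 HOX genes of 37 tested that passed an adjusted p of 0.05 in all 6 cytoplasmic libraries (5.41%). Of all genes 1.53% passed, and of protein-coding genes 2.01%. HOXD13 stayed below 0.05 when any 1 of the 6 libraries was left out. The call of HOXD10 was lost without WT-res replicate 1 (adjusted p = 0.0717), without ΔRS-res replicate 1 or without ΔRS-res replicate 2 (both 0.083), at log2 fold changes of -0.58 to -0.59. Both calls were lost in a fit of all 12 libraries, which includes the library against its label (adjusted p = 0.106 and 0.0665).

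**Figure D1:**
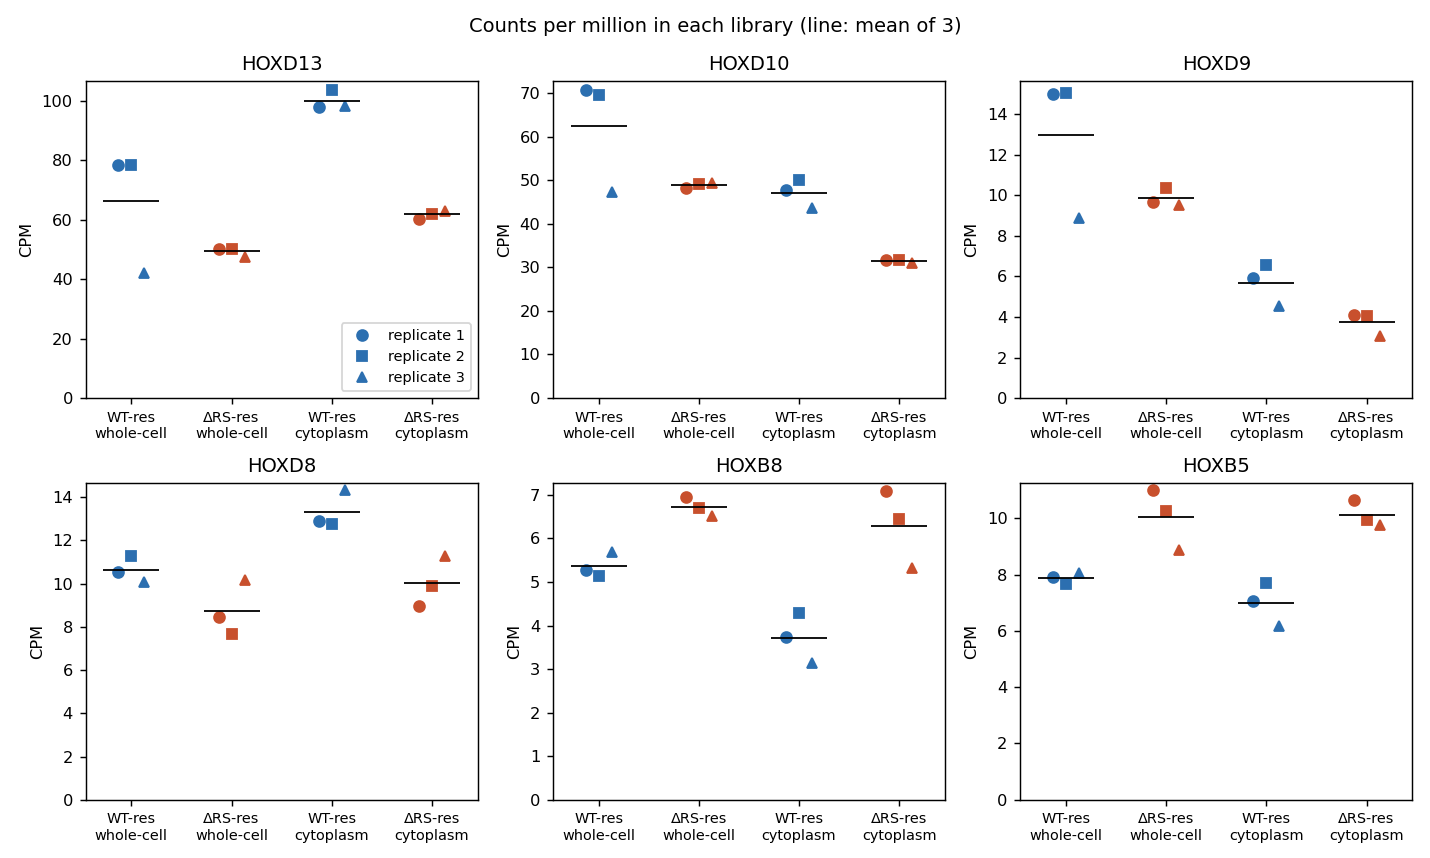
CPM of 6 HOX genes in each of the 12 libraries (marker shape for replicate, blue for WT-res, red for ΔRS-res, line for the mean of 3). For HOXD13, HOXD10 and HOXD9 the WT-res whole-cell triangle, the library against its label, sits with or below the ΔRS-res libraries, and for HOXB8 and HOXB5 the ΔRS-res cytoplasmic libraries are above those of WT-res.

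In whole-cell RNA the answer depended on the library against its label. HOXD13 had 78.2, 78.3 and 42.2 CPM in the libraries labelled WT-res and 50.2, 50.1 and 47.5 in ΔRS-res, and HOXD10 had 70.8, 69.6 and 47.2 against 48.2, 49.1 and 49.4. In both genes the libraries labelled WT-res replicates 1 and 2 were high and replicate 3 fell below all 3 of ΔRS-res. It was the lowest of the 3 libraries labelled WT-res for 9 of 9 HOXD genes, and for 9 of 9 it lay within or below the ΔRS-res range. Being lowest was not particular to HOXD. The same library was lowest for 21 of the 28 expressed genes of the other clusters, and ΔRS-res whole-cell replicate 3 was lowest of its group for 19 of them. The share of all genes was not counted. With all 6 whole-cell libraries no HOX gene of 38 tested was called (0% of all 26793 genes were, with 3360 at an unadjusted p under 0.05 and 1062 called by DESeq2), 4 had an unadjusted p under 0.05, and DESeq2 called 2, HOXB8 and HOXC5, both higher in ΔRS-res. A block for the replicate number left the HOX count at 0 and raised that of all genes to 2136. Without that library 4 HOX genes were called (10.5%), where 2.06% of 26762 genes and 2.87% of protein-coding genes were. All were lower HOXD genes: HOXD13 by -0.69 (SE 0.07, adjusted p = 0.00458), HOXD9 by -0.63 (SE 0.09, adjusted p = 0.0189), HOXD10 by -0.54 (SE 0.06, adjusted p = 0.00923) and HOXD11 by -0.40 (SE 0.07, adjusted p = 0.0464), on the log2 scale. Since same-numbered whole-cell libraries of the lines deviated together, the same 5 libraries were also fitted with the block. It called 9 HOX genes (23.7%), where 16.6% of all genes and 24.5% of protein-coding genes were called. Of the 9, 6 were lower in HOXD (HOXD13, HOXD11, HOXD10, HOXD9, HOXD8 and HOXD4) and 3 higher elsewhere, HOXB5 and HOXB8 among them.

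No other HOXD gene passed with all 6 cytoplasmic libraries, and their values follow. HOXD9, active in limb and spinal cord, had 15.0, 15.1 and 8.89 CPM in whole-cell RNA labelled WT-res and 9.70, 10.4 and 9.53 in ΔRS-res, and in the cytoplasm 5.94, 6.56 and 4.55 against 4.12, 4.07 and 3.07. HOXD11, which shapes kidney and forearm with HOXA11, had 34.5, 34.4 and 23.8 CPM against 25.4, 26.1 and 27.7, and in the cytoplasm 26.7, 29.5 and 22.9 against 19.9, 19.2 and 18.6. HOXD8 had 10.6, 11.3 and 10.1 CPM against 8.45, 7.67 and 10.2, and in the cytoplasm 12.9, 12.8 and 14.3 against 8.96, 9.89 and 11.3. For these 3 genes the cytoplasmic groups did not overlap. The anterior genes of the cluster were low: HOXD3 had 7.01, 6.67 and 5.42 CPM against 5.97, 5.64 and 5.81 in whole-cell RNA, and 5.35, 5.41 and 5.17 against 4.44, 4.64 and 4.38 in the cytoplasm. HOXD4, a hindbrain gene, had 5.30, 5.10 and 4.08 against 4.042, 4.178 and 3.998, and 1.66, 1.41 and 0.895 against 1.13, 1.11 and 0.891. HOXD1 had 1.04, 1.09 and 0.814 against 0.639, 0.882 and 0.735, and 1.42, 1.53 and 1.43 against 1.05, 1.01 and 1.11. The cytoplasmic groups were apart for HOXD3 and HOXD1 and overlapped for HOXD4. HOXD12 had 0.467, 0.427 and 0.157 CPM against 0.383, 0.316 and 0.297, and 0.313, 0.517 and 0.332 against 0.343, 0.398 and 0.309, with no separation.

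Over the cluster, the 9 HOXD genes had a median log2 fold change of -0.45 (-0.69 to -0.15) in the fit of all 6 cytoplasmic libraries, against a median of 0.0043 over all genes tested. The 28 tested genes of the other clusters had a median of 0.097, with 24 higher and 4 lower. The summed HOXD level was 149, 161 and 141 TPM in the cytoplasm of WT-res and 106.5, 104.2 and 110.6 in ΔRS-res. In whole-cell RNA it was 181, 183 and 113 TPM in the libraries labelled WT-res and 127, 138 and 130 in ΔRS-res, so the library against its label held less than every ΔRS-res library.

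**Figure D2:**
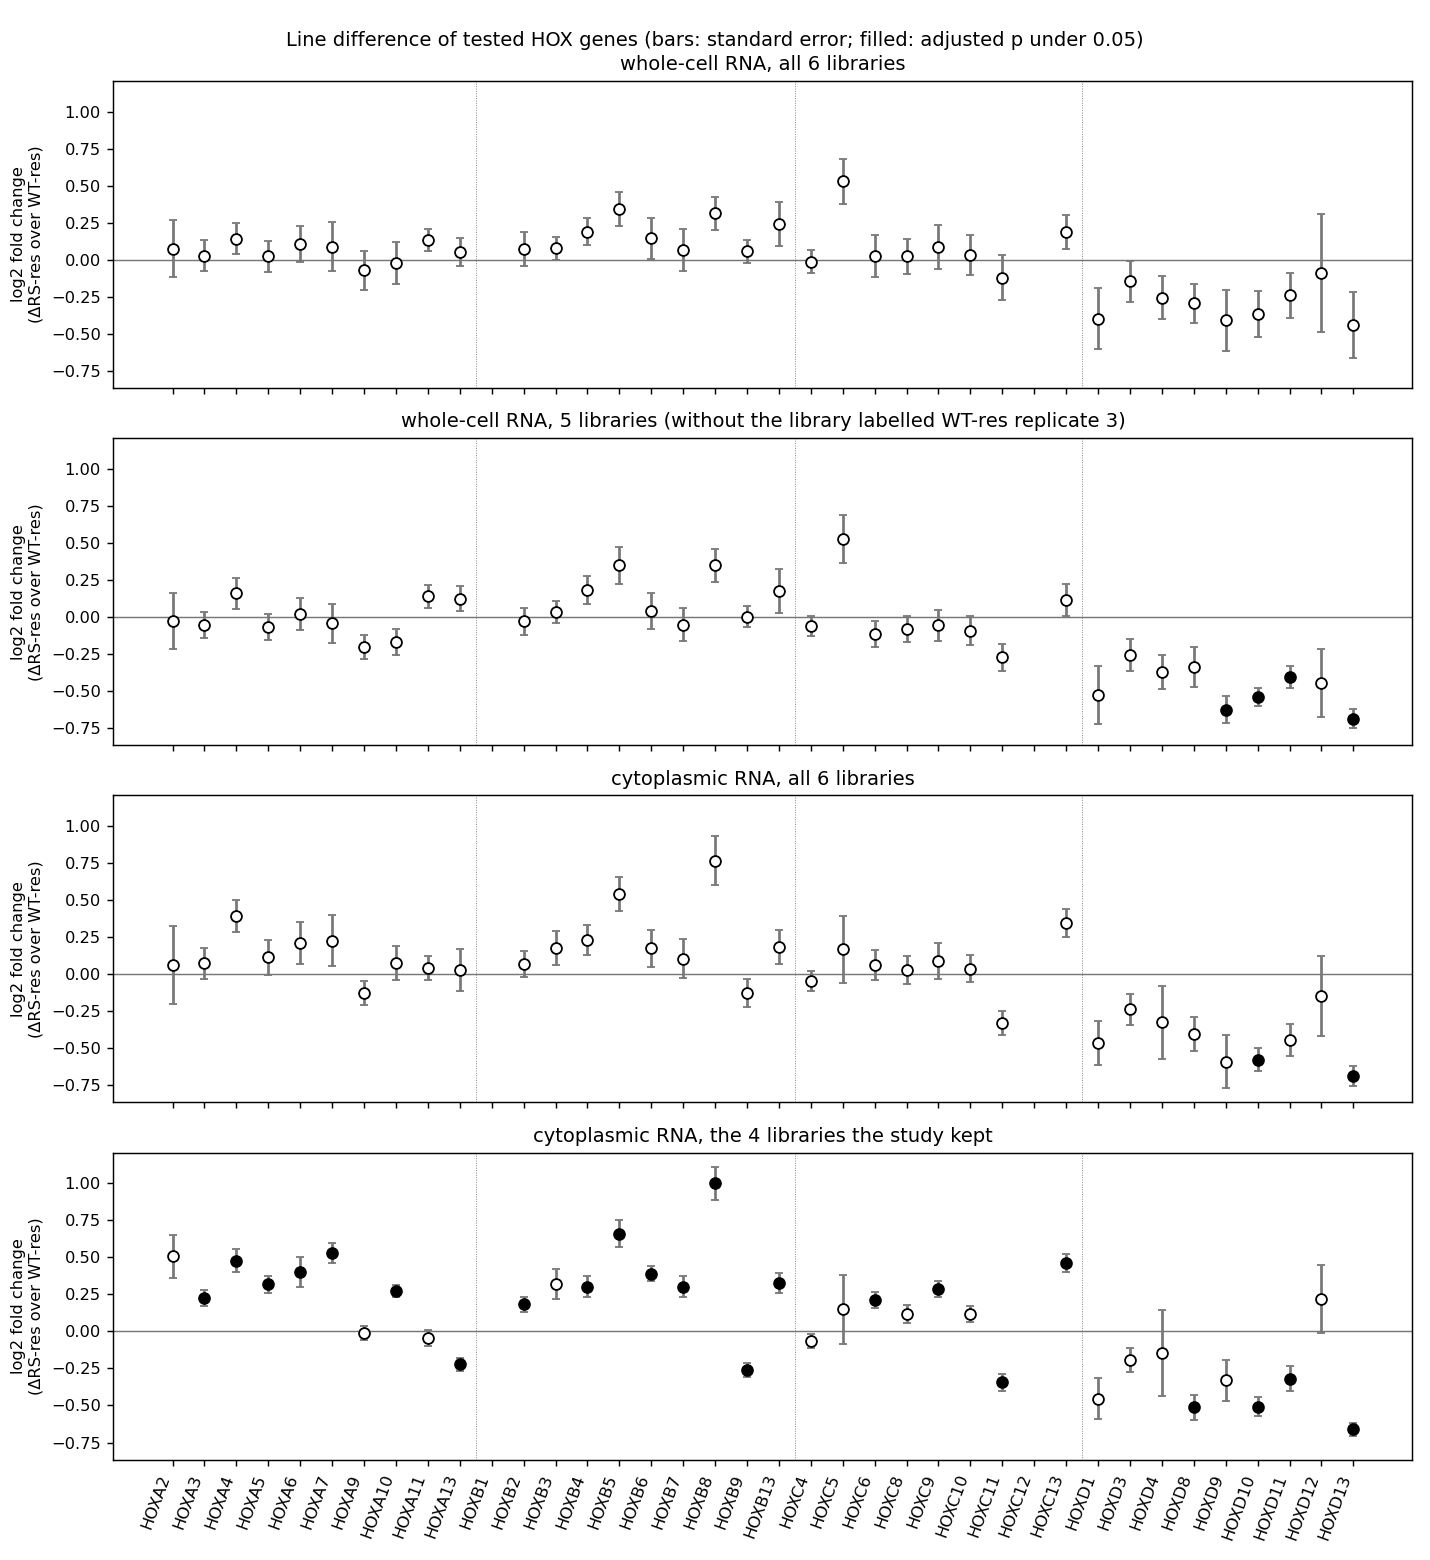
Log2 fold change of tested HOX genes, ΔRS-res over WT-res, with its standard error, in whole-cell RNA with and without the library against its label and in the 6 and the 4 cytoplasmic libraries. Filled points have an adjusted p under 0.05, dotted lines part the clusters, and HOXC12 (0 to 3 counts) is left out. HOXD genes lie below 0 in each panel apart from HOXD12 in the lowest one (0.22), where many HOXA and HOXB genes are filled and above 0.

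The levels of genes beside the HOXD cluster were lower as well. Within 5 Mb of its first and last gene start, 99 other genes were tested in the 6 cytoplasmic libraries. Of these, 79 had a log2 fold change below 0 and 23 were called lower. Their median was -0.51 (quartiles -0.75 and -0.065). The same windows gave -0.036 around HOXA (100 genes), 0.019 around HOXB (220 genes) and 0.05 around HOXC (272 genes). From HOXD13 to the end of chromosome 2, 509 genes outside the cluster had a median of -0.53, with 458 below 0, whereas the median of 1203 genes before HOXD13 was 0.0014. HOXD13 does not mark the edge of the lower levels, which that median hides. MAP3K20, at -3.065 Mb from the cluster centre, had -0.56 and CDCA7, at -2.786 Mb, had -0.71. RAPGEF4, at -3.405 Mb, had -0.10, and H3P6, between CDCA7 and the cluster, had 0.16. In these 6 libraries the HOXD median, -0.45, was close to that of its window. In the 4 cytoplasmic libraries the study kept it was -0.33, against -0.47 in the window. MTX2, the nearest tested protein-coding gene after the cluster at 80.7 kb from HOXD1, had -0.39 (SE 0.09, adjusted p = 0.1) with 6 libraries and -0.50 (SE 0.06, adjusted p = 0.00345) with 4. EVX2, the homeobox gene 15.2 kb before HOXD13, had -0.91 (SE 0.39, adjusted p = 0.449) at 0.176 CPM. The part of the chromosomal stretch in the HOXD difference was not tested. In whole-cell RNA without the library against its label the medians were -0.54 for the 101 genes in the HOXD window and -0.44 for the HOXD genes. With that library included they were -0.47 and -0.29.

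**Figure D3:**
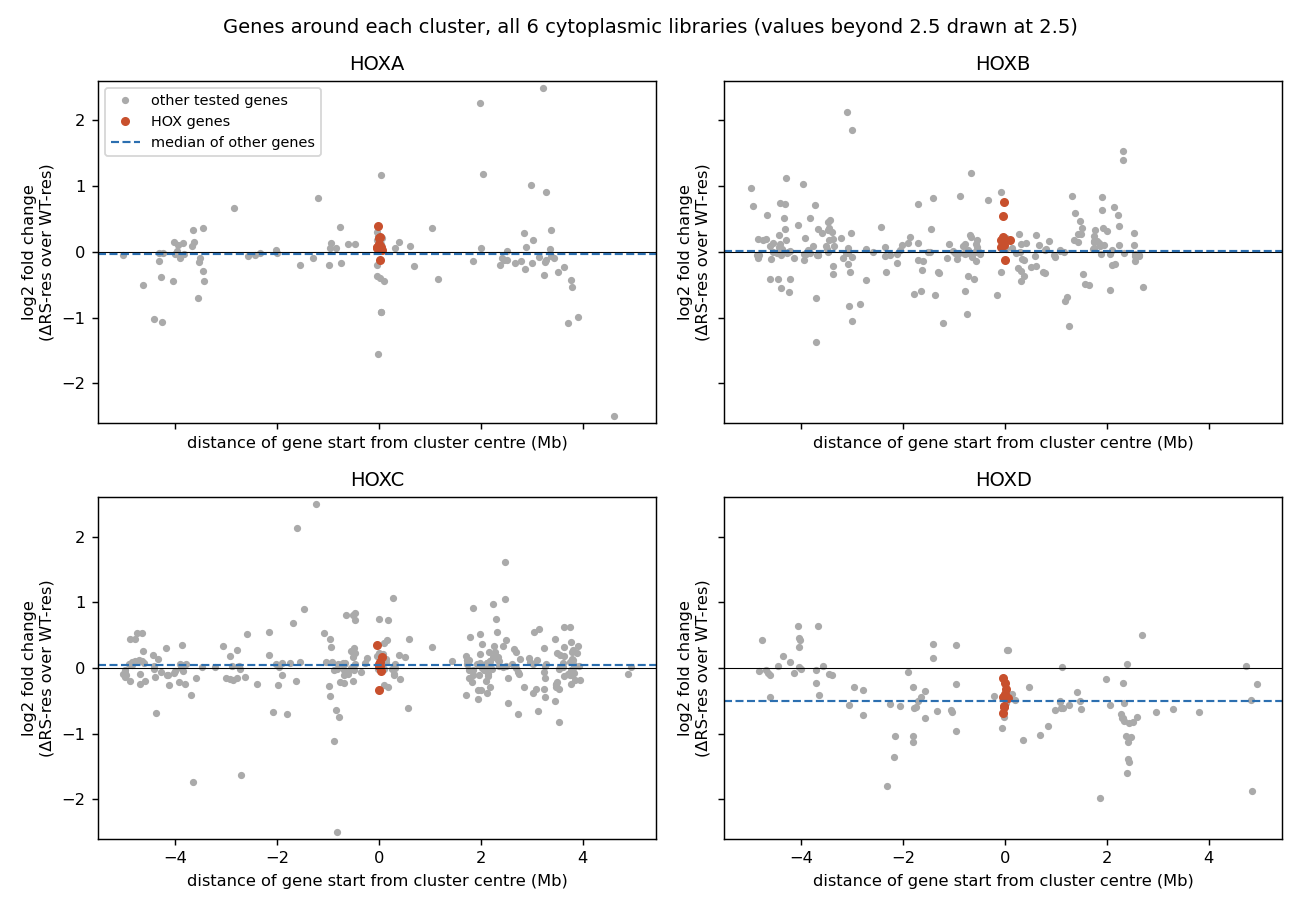
Log2 fold change (ΔRS-res over WT-res, all 6 cytoplasmic libraries) of every tested gene within 5 Mb of each cluster, by distance of its start from the cluster centre in Mb. HOX genes are red, other genes grey, values beyond the limit named in the title are drawn at it, and the dashed line is the median of the other genes, which lies at -0.51 for HOXD and between -0.036 and 0.05 for the other clusters.

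The promoters of the HOXD genes that passed the test in the cytoplasm with 6 or 4 libraries, and of HOXD4, which differed most between fractions, are printed to show what stands upstream of the genes with these differences. They are the 250 bases before the RefSeq start on the plus strand of GRCh38.p14, in lower case, and the capitals mark matches on either strand to TATAAA (the TATA box), CCAAT (the CCAAT box) or GGGCGG (the GC box). The RefSeq starts of HOXD11 and HOXD10 lie inside the longer gene models used for the counts, and that of HOXD8 lies just inside its model.
HOXD13, chr2:176092471-176092720: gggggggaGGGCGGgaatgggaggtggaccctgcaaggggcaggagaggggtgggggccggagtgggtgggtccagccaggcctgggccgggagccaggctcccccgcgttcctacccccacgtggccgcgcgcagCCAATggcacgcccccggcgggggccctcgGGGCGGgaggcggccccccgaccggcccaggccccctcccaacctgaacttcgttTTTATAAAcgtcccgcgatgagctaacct
HOXD11, chr2:176107030-176107279: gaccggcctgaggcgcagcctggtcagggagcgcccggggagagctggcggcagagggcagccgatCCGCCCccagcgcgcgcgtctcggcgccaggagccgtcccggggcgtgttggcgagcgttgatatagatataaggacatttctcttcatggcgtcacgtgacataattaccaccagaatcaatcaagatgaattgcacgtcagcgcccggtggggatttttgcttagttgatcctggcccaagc
HOXD10, chr2:176116528-176116777: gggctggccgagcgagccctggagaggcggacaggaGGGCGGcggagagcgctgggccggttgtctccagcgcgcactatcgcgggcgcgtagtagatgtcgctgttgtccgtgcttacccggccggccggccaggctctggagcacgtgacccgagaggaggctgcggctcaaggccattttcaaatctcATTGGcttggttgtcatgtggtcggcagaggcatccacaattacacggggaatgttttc
HOXD8, chr2:176129455-176129704: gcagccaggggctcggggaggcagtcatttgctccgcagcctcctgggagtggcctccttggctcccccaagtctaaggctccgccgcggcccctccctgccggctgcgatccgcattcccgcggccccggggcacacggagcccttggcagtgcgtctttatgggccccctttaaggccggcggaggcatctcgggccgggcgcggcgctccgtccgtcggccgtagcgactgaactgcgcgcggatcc
HOXD4, chr2:176151300-176151549: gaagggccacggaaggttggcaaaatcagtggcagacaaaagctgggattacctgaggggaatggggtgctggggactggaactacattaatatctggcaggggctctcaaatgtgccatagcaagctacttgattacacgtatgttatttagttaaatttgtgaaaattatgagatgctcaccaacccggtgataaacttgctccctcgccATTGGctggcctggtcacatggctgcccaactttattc
The windows shared no single motif. HOXD13, at 74.0% G and C, held the only TATA box, in 2 overlapping matches on opposite strands, with 1 CCAAT box and 2 GC boxes. HOXD10 (64.0%) held 1 CCAAT and 1 GC box, HOXD11 (61.6%) 1 GC box, HOXD4 (47.6%) 1 CCAAT box, and HOXD8 (72.4%) none of the 3. HOXD4 held 4 CpG dinucleotides, against 21 to 28 in the other 4 windows. RefSeq promoters matched 20 of the 39 HOX genes. Of these 20, 17 held a CCAAT box, 10 a GC box and 4 a TATA box, and the shares among all 35116 promoters of the same length were 32%, 42.6% and 10.7%. The median number of CpG dinucleotides was 20.5 in the HOX promoters and 11 in all.

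Outside HOXD the result turned on which cytoplasmic libraries were used. In the 4 that the study kept (replicates 1 and 3 of WT-res, and of ΔRS-res 1 and 2), 24 of 37 HOX genes were called (64.9%), where 22.1% of all 25814 genes and 30.5% of protein-coding genes were. Of these, 17 were higher in ΔRS-res and all 17 belonged to HOXA, HOXB or HOXC, while 7 were lower, 4 of them in HOXD (HOXD13, HOXD10, HOXD8 and HOXD11). With all 6 libraries edgeR called none of the 17, 5 had an unadjusted p under 0.05 and DESeq2 called 4 (HOXA4, HOXB5, HOXB8 and HOXC13). In each of the 17 genes the library left out of WT-res (replicate 2) was the highest of its group and the library left out of ΔRS-res (replicate 3) was the lowest of its group. The 17 were picked by a call without these libraries that was lost with them, so this pattern partly follows from the choice of genes. The share of all genes with it was not counted. The count of 24 fell when ΔRS-res replicate 1 or replicate 2 was left out as well, which leaves a lone library in that group.

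HOXB8, which acts in myeloid progenitors and the spinal cord, differed most. It had 3.74, 4.28 and 3.13 CPM in the cytoplasm of WT-res and 7.08, 6.46 and 5.33 in ΔRS-res, a log2 fold change of 1.00 (SE 0.11, adjusted p = 0.00285) with 4 libraries and 0.77 (SE 0.17, adjusted p = 0.0809) with 6. With 6 libraries and a block for the replicate number it was 0.77 with an adjusted p of 0.0283. HOXB5, of the same cluster, had 7.07, 7.70 and 6.16 CPM against 10.7, 9.93 and 9.76, with 0.66 (SE 0.09, adjusted p = 0.00558) and 0.54 (SE 0.12, adjusted p = 0.0804). The groups did not overlap in either gene. In whole-cell RNA HOXB8 had 5.29, 5.14 and 5.69 CPM in the libraries labelled WT-res and 6.95, 6.70 and 6.51 in ΔRS-res, and HOXB5 had 7.93, 7.66 and 8.05 against 11.02, 10.26 and 8.88. In both, the library against its label sat with the other 2 labelled WT-res.

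HOXC13, HOXA4 and HOXB4, also called higher with 4 libraries, had separate groups over the 6 cytoplasmic libraries too. HOXC13, known for hair and nail growth, had 17.1, 19.3 and 16.5 CPM against 22.2, 23.3 and 21.4. HOXA4 had 4.99, 5.55 and 5.13 against 6.75, 7.13 and 6.61. HOXB4, used to expand blood stem cells, had 6.06, 6.52 and 5.86 against 7.27, 7.21 and 7.05. With HOXB8, HOXB5, HOXC11 and 7 HOXD genes among them, 14 of 37 HOX genes had groups that did not overlap, where 17.4% of all genes tested did.

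In 11 others the library left out reached into the other group. HOXA7 is an example at 7.29, 9.96 and 7.13 CPM against 10.5, 10.1 and 7.86, and HOXA10, which acts in the uterus, had 82.0, 105 and 82.7 against 96.8, 99.2 and 87.0. HOXA3 had 22.6, 26.7 and 21.5 against 25.4, 25.4 and 23.4. In these genes the passages of a line overlapped with those of the other line. HOXA5, a lung and thoracic regulator, had 28.0, 33.6 and 26.4 against 32.9, 34.1 and 27.9, HOXA6 had 5.66, 6.39 and 4.80 against 6.62, 6.96 and 5.81, and HOXC6 had 25.5, 28.9 and 24.0 against 28.2, 28.2 and 24.9. The HOXB genes of this kind were HOXB2, a hindbrain gene, at 33.6, 36.8 and 32.2 against 37.0, 36.7 and 33.5, HOXB6 at 28.8, 34.8 and 28.1 against 36.6, 36.9 and 29.4, and HOXB7 at 13.8, 16.6 and 14.5 against 16.4, 18.0 and 13.7. HOXB13, known from prostate, had 8.02, 9.54 and 8.22 against 9.91, 10.2 and 9.03, and HOXC9, a thoracic gene, had 16.9, 20.8 and 17.1 against 20.5, 20.4 and 17.1. Their log2 fold changes were 0.18 to 0.53 with 4 libraries and 0.062 to 0.23 with 6.

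Outside HOXD, 3 genes were called lower with the 4 libraries, and all have high paralog numbers. HOXC11 had 19.6, 18.4 and 19.5 CPM against 15.0, 15.4 and 15.1, with -0.34 (SE 0.06, adjusted p = 0.00892) and with 6 libraries -0.33 (adjusted p = 0.119), and its groups did not overlap. HOXB9 had 139, 123 and 133 CPM against 112, 112 and 136, and HOXA13 had 97.7, 77.2 and 98.2 against 82.2, 83.4 and 111. In both of these ΔRS-res replicate 3, one of the libraries left out, was above its group, and with 6 libraries the values were -0.13 (adjusted p = 0.722) and 0.028 (adjusted p = 0.982). HOXA9 had 117, 128 and 117 CPM against 112, 117 and 102, with 108, 111 and 81.7 against 102, 99.4 and 87.9 in whole-cell RNA, and was called in none of the line comparisons. Among the leading genes HOXC4 had 48.7, 49.2 and 49.8 CPM against 45.7, 47.2 and 49.2, with overlapping groups and no call. The other 6 tested genes of HOXA, HOXB and HOXC (HOXA2, HOXA11, HOXB3, HOXC5, HOXC8 and HOXC10) were called by edgeR in none of the line comparisons, and their log2 fold changes over the 6 cytoplasmic libraries lay between 0.027 and 0.18. Replicate 3 was the lowest whole-cell library of its line for 21 of the 28 expressed genes of HOXA, HOXB and HOXC in WT-res and for 19 of them in ΔRS-res.

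The comparison of the cytoplasm with whole cells asks which HOX mRNAs the cytoplasm holds in a higher or lower share. HOXD4, HOXD9, HOXB3 and HOXA2 were lower in the cytoplasm of both lines, and HOXB9, HOXC10 and HOXD1 were among those higher. Values are relative to the other RNA of the same fraction. The median log2 ratio of protein-coding genes was 0.148 in WT-res and 0.117 in ΔRS-res. That of the tested HOX genes was 0.152 and 0.0896, and that of all genes -0.0543 and -0.0619. In WT-res 16 of 37 HOX genes were called (43.2%), 8 higher and 8 lower in the cytoplasm. Of all genes 41.8% were called, and of protein-coding genes 46.3%. In ΔRS-res 17 were called (45.9%), 8 higher and 9 lower, where 40.9% of all and 45.7% of protein-coding genes were. The authors' sample sheet gives same-numbered libraries of a line the same cell pellet, although the fractions came from 1 well and from 6 pooled wells. With the replicate number as a block the counts were 21 (56.8%) in WT-res and 20 (54.1%) in ΔRS-res. Of all genes 49.1% and 47.1% were then called, and of protein-coding genes 56.8% and 54.6%. With DESeq2's size factors the split in WT-res became 11 higher and 7 lower, and with counts of protein-coding transcripts alone it became 2 higher and 10 lower in WT-res and 0 higher and 8 lower in ΔRS-res. Without the library against its label 17 were called in WT-res, 7 higher and 10 lower. Of all genes 40.9% were called there, and of protein-coding genes 46.7%. In ΔRS-res the count was 11 without whole-cell replicate 1 and 9 without cytoplasmic replicate 3. For these left-out libraries and for protein-coding transcripts alone the share of all genes called is not given. Those counts therefore do not show whether HOX genes lost calls more than other genes did.

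In both lines 14 HOX genes were called, each in the same direction. The share of all genes called in both lines was not counted. In each line alone the share of HOX genes called was near that of protein-coding genes, so the count is not read as a trait of HOX genes. Without the library against its label all 14 were called in ΔRS-res and 13 in WT-res, where HOXB13 lost its call (0.36, adjusted p = 0.0547). HOXD4 (chromosome 2, 176151550 to 176153226) was furthest below its whole-cell level. Its cytoplasmic over whole-cell ratio, paired by number, was -1.68, -1.85 and -2.19 on the log2 scale in WT-res and -1.84, -1.92 and -2.17 in ΔRS-res, which was 0.273-fold (adjusted p = 2.32e-05) and 0.256-fold (adjusted p = 1.46e-05) in the fits. HOXD9 came next at -1.34, -1.20 and -0.97 in WT-res and -1.23, -1.35 and -1.63 in ΔRS-res (adjusted p = 0.000711 and 0.000204). HOXB3, a hindbrain gene, was at -0.823, -0.696 and -1.0 and at -0.76, -0.73 and -0.76 (adjusted p = 4.22e-05 and 7.7e-05). All 6 pairs were below 0 in these 3 genes, as they were in the other 4 called lower in both lines, HOXA2, HOXA6, HOXB4 and HOXD10. HOXD10 was at -0.57, -0.47 and -0.12 in WT-res, whose last value comes from the library against its label, and at -0.61, -0.63 and -0.68 in ΔRS-res. Without that library the WT-res fits gave -1.98 for HOXD4, -1.41 for HOXD9, -0.87 for HOXB3 and -0.57 for HOXD10, against -1.88, -1.19, -0.83 and -0.41 with it.

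The genes higher in the cytoplasm in both lines were HOXB9, HOXB2, HOXA11, HOXC4, HOXC10 and HOXD1, and, with the library against its label included, HOXB13. HOXC4 was the lowest of them, with fitted ratios of 0.24 and 0.18, where the median protein-coding gene was at 0.148 and 0.117. HOXB9 was at 0.51, 0.36 and 0.60 in WT-res and 0.23, 0.23 and 0.39 in ΔRS-res, and HOXC10, a hindlimb and lumbar gene, at 0.29, 0.36 and 0.72 and at 0.50, 0.38 and 0.42. Without the library against its label the WT-res fits were 0.44 for HOXB9 and 0.33 for HOXC10. All 6 pairs were above 0 in each of the 7 genes, but none of the 7 was called in ΔRS-res with protein-coding transcripts alone. HOXD13 rose too in WT-res (0.59, SE 0.18, adjusted p = 0.0182), although its pairs of 0.32, 0.40 and 1.22 show that the library against its label supplies the high value. Without that library its log2 ratio was 0.35 (adjusted p = 0.000969). In ΔRS-res HOXD13 had 0.26, 0.30 and 0.41 (fitted 0.33, SE 0.18, adjusted p = 0.166). The HOXD cluster therefore held both the lowest ratios (HOXD4 and HOXD9) and ratios above 0 (HOXD1, HOXD8 and HOXD13), within 98.2 kb.

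**Figure D4:**
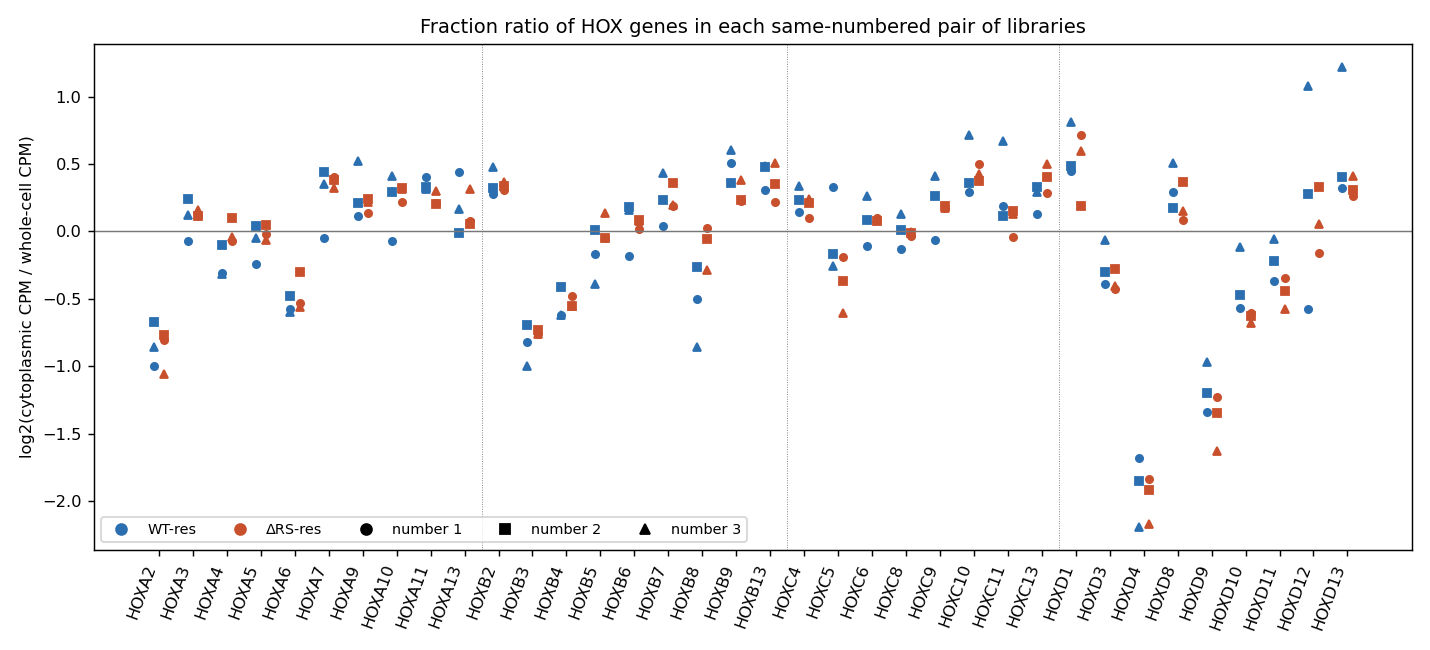
Log2 ratio of cytoplasmic to whole-cell CPM for tested HOX genes in each same-numbered pair of libraries (blue WT-res, red ΔRS-res, marker shape for the number). HOXD4 and HOXD9 lie lowest, between -2.19 and -0.97, HOXA2 and HOXB3 follow, and the WT-res pair with number 3, which holds the library against its label, lies highest for HOXD13 (1.22) and HOXD12 (1.08).

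The lines were not shown to differ in these ratios. In the interaction of fraction and line 0 of 37 HOX genes passed an adjusted p of 0.05 in edgeR and 0 in DESeq2, 1 had an unadjusted p under 0.05, and 1 of all 26686 genes passed. That HOX gene was HOXB8, with ratios of -0.50, -0.26 and -0.86 in WT-res and 0.027, -0.054 and -0.29 in ΔRS-res and an interaction of 0.43 (SE 0.20, adjusted p = 0.89). The 9 HOXD genes had interactions of -0.27 to -0.076 with all libraries, and without the library against its label 5 were below 0 and 4 above.

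Some of the fraction differences went with particular transcripts. HOXB3 counts were divided mainly between HOXB3-205 (4208 bases), with 44.5% of the gene's count in whole cells (42.6 to 46.9 over 6 libraries) and 25.3% in the cytoplasm (21.6 to 29.3), and HOXB3-212 (3301 bases), with 32.8% and 59.5%. The level of HOXB3-205 was 16.6 CPM ± 1.26 (SD, n = 6) in whole cells and 5.49 ± 1.10 in the cytoplasm, while HOXB3-212 was at 12.2 ± 1.05 and 12.8 ± 1.41 over the libraries of both lines. HOXB3-201 (2642 bases) was lower as well, at 2.43 and 0.681 CPM. HOXB6 showed the same pair of a longer and a shorter form, HOXB6-203 with 49.2% and 35.5% and HOXB6-201 with 46.4% and 62.6%. HOXD3-204, annotated without a defined coding sequence, made up 30.7% of HOXD3 counts in whole cells (26.3 to 34.9) and 11.5% in the cytoplasm (8.94 to 14.02). HOXA2-202, a retained intron form, had 27.6% and 18.3%. HOXD10, also lower in the cytoplasm, went the other way. Its coding form HOXD10-201 held 81.4% in whole cells (80.8% without the library against its label) and 76.7% in the cytoplasm. The rest went to forms without a defined coding sequence. HOXD4 and HOXD9 each have a single annotated transcript in the file, so no such division could be made, and 64% of HOXD11 counts in either fraction went to HOXD11-202, which has no defined coding sequence. Without the library against its label the whole-cell shares were 44.6% for HOXB3-205, 33.2% for HOXB3-212, 50.7% for HOXB6-203, 44.9% for HOXB6-201, 29.9% for HOXD3-204 and 27.7% for HOXA2-202. Shares are RSEM estimates and carry its uncertainty between overlapping transcripts.

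Noncoding RNAs of the clusters were measured for 18 of 20 listed. In the 6 cytoplasmic libraries 2 of 16 tested were called, where 1.53% of all genes were. HAGLR, which runs antisense to HOXD3 and HOXD1, had 35.4, 33.7 and 37.5 CPM in WT-res and 23.7, 24.9 and 24.4 in ΔRS-res (log2 fold change -0.54, SE 0.08, adjusted p = 0.0155). HOXB-AS3, antisense to HOXB3, HOXB4, HOXB5 and HOXB6, went the other way, with 7.70, 8.17 and 7.89 CPM against 13.9, 16.0 and 14.4 (0.91, SE 0.10, adjusted p = 0.00472). Neither overlapped between the lines. In whole-cell RNA HOXB-AS3 had 7.46, 7.59 and 12.4 CPM in the libraries labelled WT-res and 12.7, 12.5 and 12.0 in ΔRS-res, and HAGLR had 27.5, 27.1 and 18.7 against 20.0, 19.9 and 20.1, so the library against its label sat with ΔRS-res in both. Without it both were called (0.70, adjusted p = 0.0149, and -0.46, adjusted p = 0.0252), as was HOXD-AS2, at 1.65, 1.56 and 0.768 CPM against 0.839, 0.78 and 0.578 (-1.15, adjusted p = 0.0388). HOTAIR, transcribed from HOXC, was at 14.5 to 18.1 CPM in the 12 libraries and was not called. Between fractions HOTTIP, at the HOXA13 end of HOXA, was lower in the cytoplasm of both lines (-0.91, adjusted p = 0.00188 in WT-res and 0.0015 in ΔRS-res, and -0.80, adjusted p = 0.00622, in WT-res without the library against its label).

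Of 62 known regulators and partners of HOX genes tested, 4 (6.45%) were called between the lines in the 6 cytoplasmic libraries. Of all genes 1.53% were called there, and of protein-coding genes 2.01%. By list, edgeR called none of 9 PBX, MEIS and PKNOX genes, 1 of 11 genes of Polycomb repressive complex 2, 3 of 18 of Polycomb repressive complex 1, none of 10 genes of MLL complexes, none of 3 tested CDX and EVX genes and none of 11 retinoic acid genes. In the 4 lists without a call, 1, 1, 2 and 2 genes had an unadjusted p under 0.05, and DESeq2 called 0 in each. The one of complex 2 was EZH2, its methyltransferase (chromosome 7, 148807257 to 148884321), at 106.8, 117.5 and 111.8 CPM in WT-res and 79.4, 81.9 and 73.0 in ΔRS-res (-0.51, SE 0.08, adjusted p = 0.0187). Those of complex 1 included the chromodomain genes CBX2 and CBX8 on chromosome 17 (79778148 to 79787983 and 79792132 to 79801683), higher in ΔRS-res by 0.62 (adjusted p = 0.0147) and 0.77 (adjusted p = 0.0294). CBX2 was at 74.5, 68.6 and 62.9 CPM in WT-res and 105, 96.7 and 113 in ΔRS-res. EZH2, CBX2 and CBX8 were also called in whole-cell RNA without the library against its label, in the same directions, and in the 4 cytoplasmic libraries. With those 4 libraries the counts were 4 of 9, 2 of 11, 7 of 18, 5 of 10, 1 of 3 and 3 of 11 in the same order of lists, 22 of 62 in all (35.5%), where 22.1% of all genes and 30.5% of protein-coding genes were called. CDX2, a homeobox regulator of HOX genes, was at 11.2 to 16.2 CPM, and CDX1 and CDX4 were below 0.016 CPM in every library.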

How the data were processed

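RNA-seq of 12 libraries of Flp-In T-REx 293 cells was analysed. The authors trimmed 100 bp paired-end reads of rRNA-depleted RNA with Trim Galore, aligned them to GRCh38 with STAR and quantified Ensembl 107 transcripts with RSEM in nf-core/rnaseq. The deposited values are RSEM expected counts per transcript without normalization. Tool versions and the strand setting are not given in the sources used here. Expected counts were summed per gene and rounded. Symbols and positions came from GENCODE 44 (Ensembl 110), which matched 99.83% of genes. Totals were 90333190 to 144628005 counts, and CPM used TMM-scaled sizes of 89355613 to 138509620.

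Genes with a mean count above 2 were fitted together with the quasi-likelihood test of edgeR 4.0.16 (R 4.3.3), and calls required a Benjamini-Hochberg adjusted p under 0.05. The lines were compared within whole-cell RNA, within all 6 cytoplasmic libraries and within the 4 that the study kept. The fractions and the interaction came from 1 fit of 12 libraries. DESeq2 1.42.0, size factors, filters, protein-coding transcripts, the study's threshold, left-out libraries and a replicate block were alternatives, and the block without the library against its label was added after the data were seen. Scripts were tested on simulated data. No libraries were copies of each other.

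The members and lists were chosen with earlier results of these data known. Named with a value per library were HOX genes called in any comparison of the lines, the 2 highest of each cluster per length and every HOXD gene that passed the filter. For the other lists, called genes were named, and examples outside that rule (HOTAIR, HOTTIP, CDX1, CDX2 and CDX4) were chosen after their values were seen. So were MAP3K20, CDCA7, RAPGEF4 and H3P6 near HOXD. Same-numbered libraries were checked for pairing by correlating deviations from group means over 14938 genes. Between lines r was 0.498, 0.499 and 0.657 in whole cells, where same-numbered libraries deviated together. In the cytoplasm it was -0.359, 0.586 and 0.462, and there the numbers were not taken to pair the libraries. Deviations from a mean of 3 are not independent, and differently numbered libraries were not correlated. These values therefore cannot establish the pairing. Between fractions the sample sheet gives same-numbered libraries of a line the same cell pellet, and r was -0.165, 0.557 and 0.438 in WT-res and 0.45, 0.423 and 0.782 in ΔRS-res. Some items are counted in totals and are not reported here by name.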

Additional observations from a re-analysis of the deposited data

How the results depend on the processing

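No called HOX value changed direction under the alternatives run within a comparison. Between the 2 sets of cytoplasmic libraries HOXA13 did, called at -0.22 with 4 and at 0.028, not called, with 6. Between the lines in whole-cell RNA, where 0 HOX genes were called, the study's threshold (unadjusted p under 0.05 and a log2 change above 0.5) gave 1, the DESeq2 Wald test 2, leaving out 1 library 0 to 4, and the replicate block without the library against its label 9. With the 6 cytoplasmic libraries (2 called) these were 5 for the study's threshold, 8 for DESeq2, 1 to 2 with a library left out and 0 in the joint fit of 12 libraries. With the 4 cytoplasmic libraries (24 called) the study's threshold gave 7 and leaving out 1 library 8 to 22, and the lone library left in a group is then assumed to vary like the others. Between fractions the study's threshold gave 9 in WT-res and 6 in ΔRS-res, protein-coding transcripts alone gave 8 in ΔRS-res, and leaving out 1 library gave 12 to 18 and 9 to 19. The study's threshold also demands a minimum change, and the causes of the other differences were not tested. No share of all genes is set here beside the counts with a library left out or with protein-coding transcripts alone. Over all genes the whole-cell count was 0 in edgeR, 1062 in DESeq2 and 2136 with the replicate block, and the cytoplasmic count was 396 in edgeR and 936 in DESeq2. The replicate block gave 0 HOX genes in whole-cell RNA, 3 in the 6 cytoplasmic libraries, 21 and 20 between fractions in WT-res and ΔRS-res and 0 for the interaction. It was not run for the 4 cytoplasmic libraries, which leave no residual degrees of freedom. In the cytoplasm, where the numbers were not taken to pair the libraries, it added HOXB8. Of the single-gene values between fractions, 291 of 320 in WT-res and 279 of 340 in ΔRS-res kept their side of the threshold. HOXD12, with 0.157 to 0.517 CPM, is the tested gene of HOXD that depth limits most.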
